A study of Pistacia vera with 20 samples.

Results

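Cracked hulls of the pistachio (Pistacia vera) cultivar Lost Hills were compared with intact Lost Hills hulls of the same age, 133 days post anthesis, across every gene measured. The comparison holds 3 cracked and 3 intact libraries of the 20 in the series, and the labels alone put them there. The hull, labelled exo-mesocarp, is the soft tissue around the shell, and all trees stood in a commercial orchard with no treatment named. Also used, for contrast, were 3 tattered and 3 intact libraries of the cultivar Golden Hills at the same age; the other 8 libraries, intact hulls at 91 days (4 per cultivar), entered the estimate of spread. In this design the cultivar and the kind of split cannot be told apart. The replicates are labelled as bioreps with no word on trees or fruit, so p-values measure only the spread between samples. That spread was pooled over all groups of the series. Where Lost Hills hulls at 133 days vary more than the pooled libraries, the p-values would be too small. Between pairs of replicates there the mean chi-square per gene was 34.9 to 53.0 in cracked and 15.1 to 62.0 in intact hulls. It was 15.6 to 21.0 in Lost Hills and 15.3 to 45.4 in Golden Hills at 91 days. In Golden Hills at 133 days it was 8.44 to 55.4 in intact and 9.41 to 24.6 in tattered hulls. Whole hulls were extracted, so fewer cells of a type and less RNA per cell cannot be told apart in any value given here.

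A broken plant surface is commonly sealed from below. Suberin, a polyester of long fatty acids, glycerol and ferulic acid, is laid against the wall to hold back water, and lignin stiffens the wall. The phenolic parts of both come from phenylalanine through the phenylpropanoid enzymes, and laccases and class III peroxidases join the lignin units by oxidation. Exposed tissue also makes pathogenesis-related proteins, among them PR-1, glucanases, chitinases and thaumatin-like proteins, and in growing or softening fruit the wall is opened by expansins and by enzymes that cut pectin. The series asks how the wall of the hull is modified where it splits, and these groups were followed as lists of genes matched by protein name. All lists were chosen with earlier results of these data known. Their shares of calls therefore describe the lists and test nothing.

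Levels are FPKM as deposited, fragments scaled by gene length and by a size for each library. In all 20 libraries that size followed the median ratio of gene counts between libraries, not the total of assigned reads. The 6 libraries held 16126318 to 18270302 assigned reads. At the median length of a tested gene, 1638 bases, 1 FPKM stood for about 29.2 reads, so values well below 1 FPKM rest on few reads. Replicates of a group correlated across genes at 0.958 to 0.984. On the first principal component of the 6 libraries, which carried 40.7% of the variance, the cracked libraries lay at 6.39, 16.1 and 56.5 and the intact libraries at -14.3, -40.1 and -24.7. The groups did not overlap there, but replicate 3 of the cracked hulls stood apart, and 3 against 3 can give no exact permutation p below 0.1 (two-sided, p = 0.1). The group means differed by 52.7 there (cracked minus intact). Components recomputed without that library are other axes: on the first the means then differed by -4.16 (exact permutation p = 1), and on the next by 46.7 (exact permutation p = 0.1), so the groups lay apart on the next component instead.

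The tissue named by the labels was checked with marker lists. Markers of the lignified shell, genes of secondary wall synthesis, were near 0 in every library. The 31 genes summed to 2.66, 4.04 and 4.19 FPKM in cracked hulls and to 2.36, 2.23 and 3.37 FPKM in intact hulls, with 13 at 0 throughout. Such levels cannot show that shell tissue past wall synthesis was absent. Epidermal cuticle markers, 23 genes, summed to 77.2, 62.7 and 60.3 FPKM in cracked hulls and to 52.0, 76.1 and 79.8 FPKM in intact hulls, and 0 of the 7 tested was called. Protein HOTHEAD, an epidermal enzyme of cuticle formation, had 8.89, 12.01 and 7.36 FPKM in cracked hulls and 11.1, 12.2 and 10.8 FPKM in intact hulls. Kernel storage markers, 24 genes, summed to 24.7, 102.7 and 72.9 FPKM in cracked hulls and to 41.1, 46.1 and 28.5 FPKM in intact hulls. All 12 of its tested genes had a positive log2 fold change (100%, against 48.2% of all genes tested), with a median of 0.40, against -0.01 for all genes tested. Of the 12, 1 was called, Legumin B (evm_TU_ptg000013l_106), at 6.67, 9.19 and 6.51 FPKM in cracked hulls against 4.59, 4.19 and 5.08 FPKM in intact hulls, and 2 genes of the list were at 0 throughout. Legumin B kept its call without replicate 1 of the cracked hulls and lost it without any of the other 5 libraries (log2 fold changes 0.44 to 0.66). Whether the kernel signal has a part in any result below was not tested.

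A gene was called where limma, fitted on log2(FPKM + 1) over all 20 libraries, gave an adjusted p under 0.05 among the 19716 genes tested. By this rule 307 genes (1.56%) differed between cracked and intact hulls, 291 of them (1.48%) higher and 16 (0.0812%) lower in cracked hulls. The count of falls moved with the fit: it was 109 without replicate 2 of the cracked hulls (443 rises), 5 without replicate 3 of the cracked hulls (168 rises), 88 with array weights (578 rises) and 7 with a pseudocount of 0.1 (266 rises). At an unadjusted p under 0.05, 1179 genes were higher and 551 lower. The rises were steep: the median ratio of mean FPKM among the 291 was 9.01, and 117 of them were under 1 FPKM in all 3 intact libraries. In 300 of the 307 the groups did not overlap, as was so in 11.6% of all genes tested. The highest cracked library was replicate 3 in 249 of the 291 rises, replicate 2 in 29 and replicate 1 in 13.

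**Figure D1:**
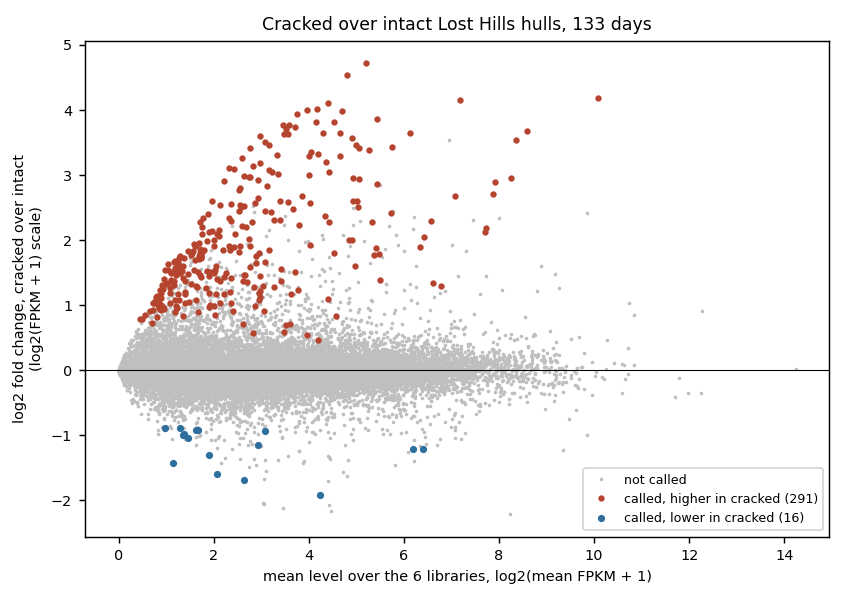
Each point is a gene tested in the 6 Lost Hills libraries, with its mean level, log2(mean FPKM + 1), across and its log2 fold change, cracked over intact on the log2(FPKM + 1) scale, upward. The 291 red points are genes called higher in cracked hulls and the 16 blue points genes called lower, so nearly all calls lie above the line at 0.

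The number of calls depended on the libraries in the fit. With only the 6 libraries in the fit 4 genes were called, all higher, and 0 of the genes named by rule were among them. Leaving out single libraries of either group gave 173 calls without replicate 3 of the cracked hulls, 180 without replicate 2 of the intact hulls and 552 without replicate 2 of the cracked hulls, and 151 of the 307 genes kept their call in all 6 such fits. The 4 genes of the small fit were steady within each group, which a call from 6 libraries alone favours. Cationic peroxidase 1 (evm_TU_ptg000027l_148), a class III peroxidase, had 51.6, 49.1 and 39.7 FPKM in cracked hulls against 11.2, 11.9 and 9.48 FPKM in intact hulls. Peroxidase 53 (evm_TU_ptg000011l_627) had 2.02, 1.92 and 2.37 FPKM in cracked hulls and no read in the intact libraries. Against a floor of 3 reads per library it was at least 12.6-fold higher. The others were Berberine bridge enzyme-like 13 (evm_TU_ptg000017l_900), of a family of flavin oxidases, with 9.29, 7.57 and 13.5 FPKM in cracked hulls against 0.389, 0.236 and 0.484 FPKM in intact hulls, and NRT1/PTR FAMILY 7.3 (evm_TU_ptg000024l_410), of a family of nitrate and peptide transporters. The transporter had 6.46, 7.95 and 9.55 FPKM in cracked hulls against 0, 0.0316 and 0.0610 FPKM in intact hulls. In none of the 4 did the groups overlap, as in 300 of the 307 called genes.

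Suberin genes had the highest share of rises of the 34 pathway lists in this fit, though not in all others: with TPM scaling 7 of the 21 laccases and dirigent proteins were called, a higher share. Of 16 tested, 5 rose (31.3%) and 0 fell in cracked hulls, and the median log2 fold change of the list was 0.32, against -0.01 for all genes tested. The 16 together summed to 62.2, 50.1 and 90.5 FPKM in cracked hulls and to 15.4, 20.8 and 30.1 FPKM in intact hulls. The list was matched by protein name and took every fatty acyl-CoA reductase, so not each of the 5 that rose need act in suberin. Cytochrome P450 86A1 (evm_TU_ptg000016l_840, contig ptg000016l, 9060092 to 9061633), the fatty acid hydroxylase of suberin in Arabidopsis roots, had 10.7, 5.94 and 18.1 FPKM in cracked hulls and 0, 0 and 0.252 FPKM in intact hulls. Its groups were far apart (log2 fold change 3.42, SE 0.39, limma adjusted p = 6.36e-05).

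The other genes of the suberin list that rose shared its highest cracked library. Omega-hydroxypalmitate O-feruloyl transferase (evm_TU_ptg000019l_2938, contig ptg000019l, 28457736 to 28459751), which joins ferulic acid to the fatty chains, had 11.8, 9.93 and 20.7 FPKM in cracked hulls and 0.227, 0.721 and 2.99 FPKM in intact hulls (log2 fold change 2.83, SE 0.32, limma adjusted p = 6.36e-05). Glycerol-3-phosphate acyltransferase 5 (evm_TU_ptg000009l_391), which loads the chains on glycerol, had 8.37, 5.95 and 12.6 FPKM in cracked hulls and 0.111, 0 and 1.51 FPKM in intact hulls. Cytochrome P450 86B1 (evm_TU_ptg000024l_567), the hydroxylase of very long chains, had 5.73, 6.42 and 10.99 FPKM in cracked hulls and 0, 0 and 1.91 FPKM in intact hulls. Fatty acyl-CoA reductase 3 (evm_TU_ptg000016l_179), of the family that makes fatty alcohols, was lower than these, at 0.931, 1.14 and 1.86 FPKM in cracked hulls and 0, 0 and 0.286 FPKM in intact hulls. In all 5 the highest cracked library was replicate 3 and the highest intact library replicate 3. The groups did not overlap in any of the 5, as in 300 of the 307 called genes. All 5 kept their call when any of the 6 libraries was left out.

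**Figure D2:**
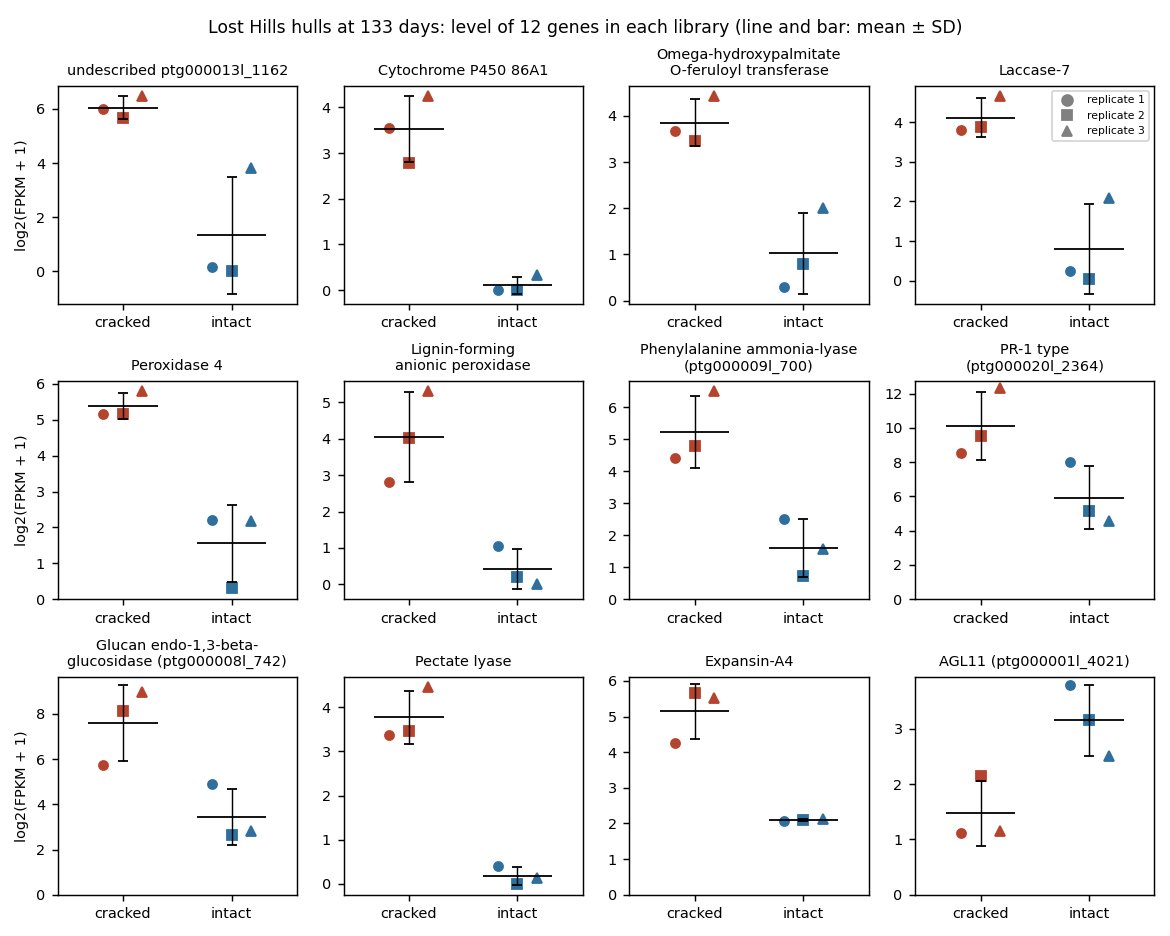
Each panel gives a gene's log2(FPKM + 1) in the 3 cracked libraries (red, left) and the 3 intact libraries (blue, right) of Lost Hills, with the shape of a point marking the replicate and the line and bar the mean and SD on that scale. In 11 of the 12 panels every cracked library lies above every intact library, and in AGL11 every cracked library lies below.

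Lipid transfer proteins, small secreted carriers of lipids to the outside of the wall, rose in part. Of 33 tested, 8 rose (24.2%) and 0 fell, with a list median log2 fold change of 0.22, and all 8 kept their call without any of the 6 libraries. Of the 8, 7 were GPI-anchored forms, which are held at the cell surface. The GPI-anchored 5 gene evm_TU_ptg000019l_3175 (contig ptg000019l, 30725970 to 30726718) had 20.2, 19.1 and 45.2 FPKM in cracked hulls and 0.195, 0 and 2.99 FPKM in intact hulls (log2 fold change 4.00, SE 0.50, limma adjusted p = 0.000127). The most abundant of the GPI-anchored forms, evm_TU_ptg000022l_2034, had 82.0, 75.1 and 107.8 FPKM in cracked hulls against 18.2, 11.1 and 18.5 FPKM in intact hulls. Unlike these, the soluble form evm_TU_ptg000012l_219 (Non-specific lipid-transfer protein) was uneven among cracked hulls, with 6.88, 91.5 and 66.8 FPKM there and 5.34, 1.10 and 1.22 FPKM in intact hulls (log2 fold change 3.57, SE 0.66, limma adjusted p = 0.00539). The GPI-anchored genes that rose lie in runs of neighbouring genes on contigs ptg000019l and ptg000022l, where similar copies may share reads, so the value of each is less certain than their joint direction. The sum over the 33 genes, 2819, 4514 and 2924 FPKM in cracked hulls and 2373, 2047 and 3577 FPKM in intact hulls, was set by other members and overlapped.

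GDSL esterases and lipases, a large family with members that act in cutin and suberin assembly, had 4 rises of 51 tested (7.84%) and a median log2 fold change of 0.12. The list had 2 calls without replicate 3 of the cracked hulls, 2 without replicate 2 of the intact hulls and 7 without replicate 1 of the cracked hulls. GDSL esterase/lipase At1g74460 (evm_TU_ptg000002l_967) had 14.2, 13.8 and 22.3 FPKM in cracked hulls and 0.394, 0.575 and 3.53 FPKM in intact hulls (log2 fold change 3.02, SE 0.35, limma adjusted p = 7.35e-05). GDSL esterase/lipase At2g23540 (evm_TU_ptg000013l_1666) had 3.97, 4.94 and 10.7 FPKM in cracked hulls and 0, 0 and 0.747 FPKM in intact hulls. Both kept their call in all 6 fits without a library, and their cracked libraries were all above their intact ones. Cutin and wax genes, which build the outer cuticle, had 1 call among 28 tested (3.57%) and a median of 0.05. It was Glycerol-3-phosphate 2-O-acyltransferase 6 (evm_TU_ptg000027l_319), a cutin enzyme in Arabidopsis flowers, at 2.05, 1.05 and 3.20 FPKM in cracked hulls against 0.0278, 0 and 0.0285 FPKM in intact hulls.

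Enzymes from several steps of the lignin route rose. Of 69 phenylpropanoid and monolignol enzymes tested 11 rose (15.9%) and 0 fell, and the list median was 0.10. The 11 included 5 genes of phenylalanine ammonia-lyase, which opens the pathway, 4-coumarate--CoA ligase 2, Cytochrome P450 98A2, Caffeoyl-CoA O-methyltransferase, 2 genes of Cinnamoyl-CoA reductase 1 and Cytochrome P450 84A1. Phenylalanine ammonia-lyase evm_TU_ptg000009l_700 had 20.1, 26.7 and 91.2 FPKM in cracked hulls and 4.71, 0.641 and 1.96 FPKM in intact hulls. 4-coumarate--CoA ligase 2 (evm_TU_ptg000012l_370), which activates the cinnamic acids, had 10.6, 10.8 and 24.1 FPKM in cracked hulls and 1.19, 0.269 and 1.07 FPKM in intact hulls (log2 fold change 3.07, SE 0.33, limma adjusted p = 4e-05). In all 11 the highest cracked library was replicate 3. In cracked hulls the 69 genes summed to 1740, 1598 and 2058 FPKM, above the 1394, 1510 and 1501 FPKM of intact hulls. Without replicate 3 of the cracked hulls, or without replicate 2 of the intact hulls, 8 of the list were called. Some of the phenylalanine ammonia-lyase genes are neighbours on contig ptg000027l and may share reads.

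The oxidative enzymes that follow had shares of rises close to that of suberin. Laccases and dirigent proteins, which oxidize lignin units and steer their coupling, had 6 rises of 21 tested (28.6%), 0 falls and a median of 0.40. Laccase-7 (evm_TU_ptg000027l_379) had 12.9, 13.7 and 24.4 FPKM in cracked hulls and 0.191, 0.0338 and 3.27 FPKM in intact hulls. Laccase-5 (evm_TU_ptg000009l_113) had 3.86, 2.91 and 7.42 FPKM in cracked hulls and 0.0261, 0 and 0.214 FPKM in intact hulls. Putative laccase-9 (evm_TU_ptg000001l_3676) had 2.96, 16.3 and 45.7 FPKM in cracked hulls and 1.94, 0.909 and 2.35 FPKM in intact hulls (log2 fold change 2.47, SE 0.59, limma adjusted p = 0.0407). Its 3 cracked libraries were far apart. This gene lost its call without any of 5 of the 6 libraries, with log2 fold changes between 1.64 (without replicate 3 of the cracked hulls) and 2.64 (without replicate 3 of the intact hulls), and stayed called without replicate 1 of the cracked hulls. The list as a whole had 3 calls without replicate 2 of the intact hulls.

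Class III peroxidases had 8 rises of 30 tested (26.7%), 0 falls and a median of 0.46, and 2 of the 4 genes that were called from the 6 libraries alone belong here. Peroxidase 4 (evm_TU_ptg000009l_55, contig ptg000009l, 480373 to 481966) had 35.0, 35.1 and 54.6 FPKM in cracked hulls and 3.59, 0.244 and 3.49 FPKM in intact hulls (log2 fold change 3.82, SE 0.42, limma adjusted p = 4.69e-05). Lignin-forming anionic peroxidase (evm_TU_ptg000008l_428, contig ptg000008l, 9490114 to 9492106), named for its role in tobacco, had 6.02, 15.3 and 38.7 FPKM in cracked hulls and 1.06, 0.147 and 0 FPKM in intact hulls. Its groups were apart although the cracked libraries spread widely among themselves. The 30 genes summed to 329.9, 397.2 and 523.0 FPKM in cracked hulls and to 299.1, 210.1 and 235.9 FPKM in intact hulls. Without replicate 2 of the intact hulls 4 of the list were called.

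**Figure D3:**
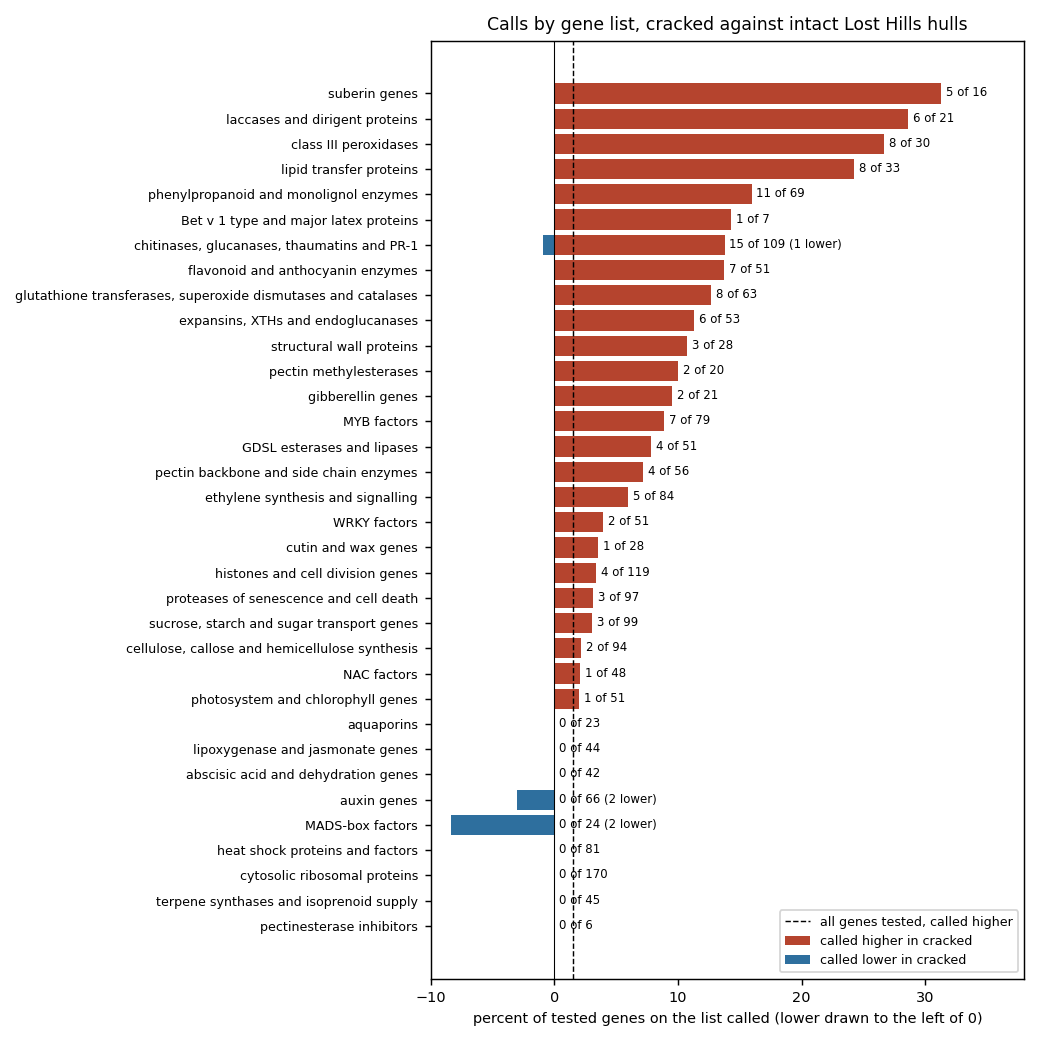
Bars give the percent of tested genes on each of 34 lists that were called higher (red, right of 0) or lower (blue, left of 0) in cracked Lost Hills hulls, with the counts beside them. The dashed line marks the 1.48% of all genes tested that were called higher; suberin genes (31.3%), laccases and dirigent proteins (28.6%), class III peroxidases (26.7%) and lipid transfer proteins (24.2%) lie furthest to its right.

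Genes that loosen or cut the wall included steep rises. Of 53 expansins, xyloglucan endotransglucosylases and endoglucanases 6 rose (11.3%) and 0 fell, with a median of 0.09. Expansin-A4 (evm_TU_ptg000009l_402, contig ptg000009l, 2711769 to 2713553), a wall-loosening protein, had 18.0, 50.1 and 44.6 FPKM in cracked hulls and 3.21, 3.31 and 3.34 FPKM in intact hulls (log2 fold change 3.05, SE 0.40, limma adjusted p = 0.000235). Expansin-A6 (evm_TU_ptg000016l_654) had 13.1, 22.0 and 22.3 FPKM in cracked hulls and 1.36, 2.24 and 3.51 FPKM in intact hulls. For both, replicate 1 was the lowest cracked library and still above every intact library. The remaining 4, Endoglucanase 1, Expansin-like B1, a xyloglucan endotransglucosylase and Endoglucanase 17, had means between 1.09 and 4.39 FPKM in cracked hulls. The sum over the list, 1417.5, 1151 and 936.8 FPKM in cracked hulls and 1029, 1373 and 1138 FPKM in intact hulls, overlapped.

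Pectin genes showed a similar picture. Of 56 enzymes that cut the pectin backbone or its side chains 4 rose (7.14%) and 0 fell, with a median of 0.14, and of 20 pectin methylesterases, which unmask pectin for cutting, 2 rose (10%), with a median of 0.06. Pectate lyase evm_TU_ptg000019l_2786 had 9.44, 10.1 and 21.2 FPKM in cracked hulls and 0.312, 0 and 0.0913 FPKM in intact hulls, and Probable pectate lyase 8 (evm_TU_ptg000022l_1523) had 5.82, 9.45 and 12.3 FPKM in cracked hulls and 0.264, 0.792 and 1.27 FPKM in intact hulls. Both pectate lyases were called in all 6 fits without a library, while the list of 56 had 2 calls without replicate 3 of the cracked hulls. Pectinesterase 2 (evm_TU_ptg000019l_194) had 1.88, 15.9 and 5.76 FPKM in cracked hulls and 0.331, 0.0638 and 0.987 FPKM in intact hulls (log2 fold change 2.29, SE 0.43, limma adjusted p = 0.00672). It was not called without replicate 2 of the intact hulls (log2 fold change 2.09), when 0 of its list was called. Of 6 genes on the pectinesterase inhibitor list, which also took other names such as BIIDXI and cell wall or vacuolar inhibitors, 0 was called. Pectinesterase inhibitor 10 (evm_TU_ptg000004l_863) had 10.1, 6.49 and 12.2 FPKM in cracked hulls and 13.5, 20.3 and 23.9 FPKM in intact hulls (limma adjusted p = 0.453). As with the expansins, the genes that rose were minor parts of their lists: the 56 pectin-cutting enzymes summed to 3305, 2266 and 2212 FPKM in cracked hulls and to 1337, 3777 and 2857 FPKM in intact hulls.

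Wall synthesis held few calls. Of 94 genes for cellulose, callose and hemicellulose synthesis 2 rose (2.13%), with a median of 0.04, whose sign turned under quantile normalization (-0.01). It had 1 call without replicate 3 of the cracked hulls, 1 without replicate 2 of the intact hulls and 4 without replicate 1 of the cracked hulls. Cellulose synthase A catalytic subunit 2 (evm_TU_ptg000001l_3572), a primary wall subunit in Arabidopsis, had 12.2, 13.7 and 12.1 FPKM in cracked hulls and 3.60, 4.13 and 6.48 FPKM in intact hulls (log2 fold change 1.28, SE 0.30, limma adjusted p = 0.0371). This call did not survive TPM or quantile scaling, nor the loss of any library except replicate 3 of the intact hulls, with log2 fold changes of 1.14 to 1.31 in those fits. Among 28 structural wall proteins 3 rose (10.7%), with a median of 0.24, and 1 was called without replicate 3 of the cracked hulls or without replicate 2 or 3 of the intact hulls. Non-classical arabinogalactan protein 31 (evm_TU_ptg000017l_1745), a proline-rich glycoprotein of the wall, had 11.1, 8.20 and 27.5 FPKM in cracked hulls and 0.593, 0.126 and 0.304 FPKM in intact hulls (log2 fold change 3.47, SE 0.55, limma adjusted p = 0.0014). Fasciclin-like arabinogalactan protein 7 (evm_TU_ptg000019l_1782) had 7.56, 11.7 and 12.3 FPKM in cracked hulls and 3.55, 2.11 and 4.00 FPKM in intact hulls, and of the 6 fits without a library it was called only in that without replicate 1 of the cracked hulls (log2 fold changes 1.25 to 1.59 in the others).

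Defence proteins included the most abundant of the 291 rises, and their levels were uneven among cracked libraries. Of 109 chitinases, glucanases, thaumatins and PR-1 proteins 15 rose (13.8%) and 1 fell, with a median of 0.32. PR-1 type protein (evm_TU_ptg000020l_2364, contig ptg000020l, 58564276 to 58564893), a secreted marker of salicylic acid responses in many plants, had 367.4, 725.7 and 5062 FPKM in cracked hulls and 256.9, 35.1 and 23.1 FPKM in intact hulls (log2 fold change 4.19, SE 0.89, limma adjusted p = 0.0169). The lowest cracked library was thus only a little above the highest intact library, and replicate 3 stood far above the other cracked libraries. A glucan endo-1,3-beta-glucosidase (evm_TU_ptg000008l_742), which cuts callose and fungal glucan, had 51.7, 280.6 and 496.5 FPKM in cracked hulls and 28.6, 5.30 and 6.03 FPKM in intact hulls (log2 fold change 4.15, SE 0.78, limma adjusted p = 0.00632). Pathogenesis-related protein 1 (evm_TU_ptg000002l_86) had 14.3, 40.9 and 185.3 FPKM in cracked hulls and 9.95, 1.17 and 0.661 FPKM in intact hulls.

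The same libraries were high throughout this group. Replicate 3 was the highest cracked library in 13 of the 15 rises and replicate 1 the highest intact library in 13. The median difference between replicate 3 and replicate 1 of the cracked hulls over the 15 genes was 2.82 on the log2(FPKM + 1) scale, against 0.91 over all 291 rises and 0.71 over the 5 suberin genes. Summed over the 109 genes, the level was 7630, 11445 and 23637 FPKM in cracked hulls and 7413, 5525 and 6151 FPKM in intact hulls. The count of rises followed these libraries: 8 of the list were called without replicate 3 of the cracked hulls, 8 without replicate 2 of the intact hulls, 24 without replicate 1 of the intact hulls and 26 without replicate 1 of the cracked hulls. PR-1 type protein was not called without replicate 3 of the cracked hulls (log2 fold change 3.09), replicate 2 of the intact hulls (3.81) or replicate 3 of the intact hulls (3.52), and evm_TU_ptg000002l_86 was not called without the same libraries (2.90, 3.53 and 3.34). The glucanase was not called without replicate 3 of the cracked hulls (3.48) or replicate 2 of the intact hulls (3.75). The only fall was that of a Thaumatin-like protein (evm_TU_ptg000027l_502), with 0.330, 1.05 and 0.920 FPKM in cracked hulls and 3.87, 1.85 and 2.34 FPKM in intact hulls.

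**Figure D4:**
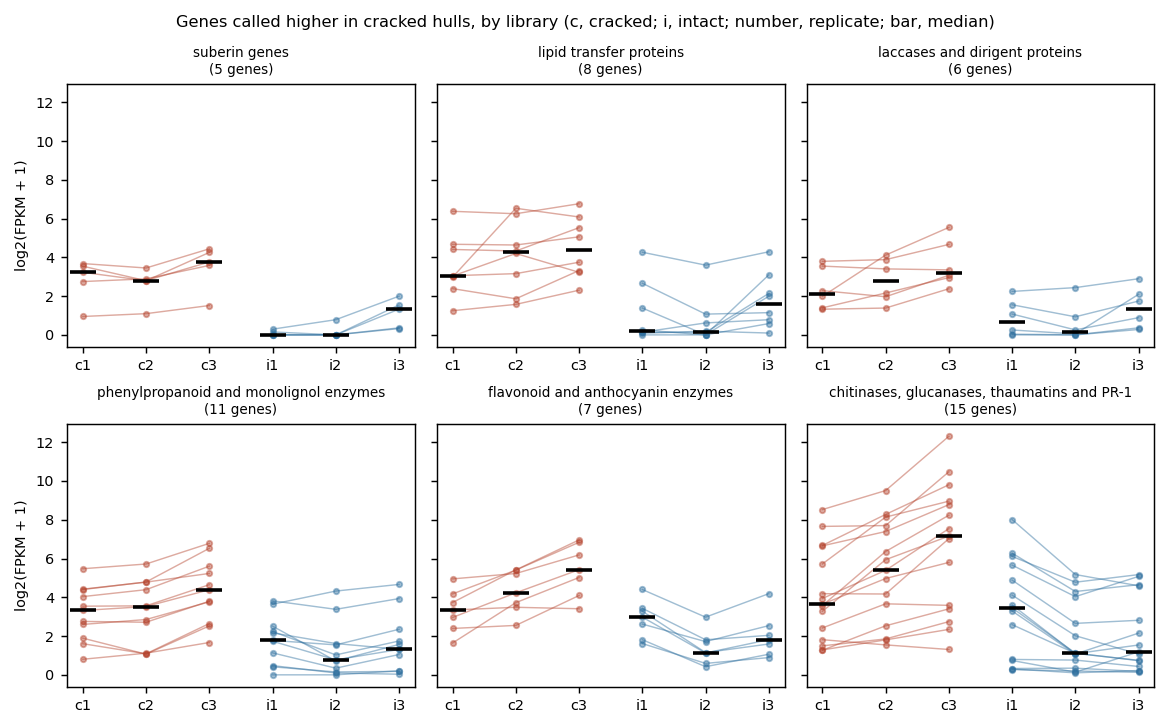
Each thin line joins the log2(FPKM + 1) of a gene called higher in cracked hulls over the cracked (c1 to c3) and the intact (i1 to i3) libraries of Lost Hills, for 6 lists, and black bars mark the median of the list in a library. Medians of the suberin genes are highest in c3 among the cracked libraries and near 0 in intact replicates 1 and 2. Medians of the chitinase, glucanase, thaumatin and PR-1 list differ more between cracked libraries and are highest among intact hulls in replicate 1.

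Kunitz type trypsin inhibitor 104 (evm_TU_ptg000013l_25), a protease inhibitor of a family known for defence against insects, had 6.93, 28.4 and 29.6 FPKM in cracked hulls and 0.557, 0.295 and 0.380 FPKM in intact hulls (log2 fold change 3.77, SE 0.44, limma adjusted p = 8.52e-05). It kept its call without any of the 6 libraries. Of 7 Bet v 1 type and major latex proteins, small pockets for plant metabolites, 1 rose, Major allergen Pru ar 1 (evm_TU_ptg000022l_2392), with 23.4, 29.0 and 176.8 FPKM in cracked hulls and 16.7, 2.86 and 3.92 FPKM in intact hulls (log2 fold change 2.87, SE 0.63, limma adjusted p = 0.0227). That call was lost without replicate 3 of the cracked hulls (log2 fold change 1.96) and without replicates 2 (2.44) or 3 (2.62) of the intact hulls. Of 51 WRKY factors, regulators of defence and senescence, 2 were called (3.92%), with a list median of 0.13; without replicate 3 of the cracked hulls or replicate 2 or 3 of the intact hulls it was 1, and without replicate 2 of the cracked hulls 4. Probable WRKY transcription factor 43 (evm_TU_ptg000019l_467) was at 1.76, 1.77 and 4.38 FPKM in cracked hulls and at 0, 0 and 0.275 FPKM in intact hulls.

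Flavonoid enzymes, which make anthocyanins and tannins, had the library order of the defence genes. Of 51 tested 7 rose (13.7%) and 0 fell, with a median of 0.26, and replicate 1 was the highest intact library in all 7. Flavonoid 3',5'-hydroxylase (evm_TU_ptg000008l_893), which sets the anthocyanin type, had 17.1, 41.3 and 113.4 FPKM in cracked hulls and 8.73, 1.22 and 2.01 FPKM in intact hulls (log2 fold change 3.46, SE 0.58, limma adjusted p = 0.0023). Chalcone synthase 1 (evm_TU_ptg000022l_1487), the entry enzyme, had 12.3, 41.6 and 123.5 FPKM in cracked hulls and 9.80, 2.50 and 3.10 FPKM in intact hulls (log2 fold change 2.94, SE 0.62, limma adjusted p = 0.0154). The chalcone synthase was not called without replicate 3 of the cracked hulls (2.14) or replicates 2 (2.63) or 3 (2.75) of the intact hulls, and of the list 1 gene was called without the cracked library, 1 without intact replicate 2 and 2 without intact replicate 3. The hydroxylase kept its call in all 6 such fits. Of the 4 chalcone synthase genes that rose, 3 are neighbours on contig ptg000022l and may share reads. Of 45 terpene synthase and isoprenoid genes, which supply resin and scent, 0 was called. (R)-limonene synthase 1 (evm_TU_ptg000017l_785) had 0.589, 26.4 and 4.52 FPKM in cracked hulls and 0.194, 0.722 and 2.91 FPKM in intact hulls (limma adjusted p = 0.519); without replicate 1 of the cracked hulls it passed (log2 fold change 2.62, limma adjusted p = 0.0457).

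Genes that handle oxidized and foreign compounds rose in part. Of 63 glutathione transferases, superoxide dismutases and catalases 8 rose (12.7%) and 0 fell, with a median of 0.33, and all 8 were glutathione transferases, which couple glutathione to reactive compounds. Glutathione S-transferase parA (evm_TU_ptg000012l_152) had 50.8, 31.4 and 22.2 FPKM in cracked hulls and 9.95, 3.66 and 5.64 FPKM in intact hulls (log2 fold change 2.28, SE 0.39, limma adjusted p = 0.00304); here replicate 1 was the highest cracked library. Another (evm_TU_ptg000013l_105) had 17.5, 22.1 and 120.6 FPKM in cracked hulls and 8.38, 3.10 and 5.02 FPKM in intact hulls. Its call was lost without replicate 3 of the cracked hulls (log2 fold change 1.75) or replicates 2 (2.31) or 3 (2.59) of the intact hulls. Without replicate 2, and likewise without replicate 3, of the intact hulls 2 of the list were called, and 4 without replicate 3 of the cracked hulls. Of 97 proteases of senescence and cell death 3 rose (3.09%), with 1 call without replicate 3 and 6 without replicate 2 of the cracked hulls. Among the 3 was Probable aspartic proteinase GIP2 (evm_TU_ptg000019l_3237), with 5.41, 12.9 and 10.6 FPKM in cracked hulls and 1.08, 0.706 and 1.96 FPKM in intact hulls (log2 fold change 2.21, SE 0.27, limma adjusted p = 0.000104).

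Sugar genes gave 3 rises among 99 tested (3.03%), with a median of 0.10. Cell wall invertase CWINV1 (evm_TU_ptg000021l_134), which splits sucrose outside the cell, had 2.83, 12.7 and 16.9 FPKM in cracked hulls and 2.77, 0.683 and 0.287 FPKM in intact hulls (log2 fold change 2.28, SE 0.44, limma adjusted p = 0.00729). Sugar transport protein 1 (evm_TU_ptg000017l_1441), a hexose importer, had 17.9, 27.0 and 62.5 FPKM in cracked hulls and 9.57, 9.66 and 5.98 FPKM in intact hulls (log2 fold change 1.80, SE 0.36, limma adjusted p = 0.0102). The importer was not called without replicate 3 of either group (1.32 without the cracked and 1.603 without the intact library). The invertase was not called without those libraries (1.85 and 1.96) or without replicate 2 of the intact hulls (2.15), and 0 of the list was called without replicate 3 of either group, 1 without replicate 2 of the intact hulls and 10 without replicate 2 of the cracked hulls.

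Ethylene genes included a rise with little spread, that of a transcription factor. Of 84 ethylene genes 5 rose (5.95%) and 0 fell, while the list median was -0.08. Ethylene-responsive transcription factor ERF114 (evm_TU_ptg000019l_1188, contig ptg000019l, 7844322 to 7847222) had 6.42, 6.81 and 7.39 FPKM in cracked hulls and 2.10, 0.687 and 1.01 FPKM in intact hulls (log2 fold change 1.84, SE 0.20, limma adjusted p = 3.82e-05). Its groups were far apart. 1-aminocyclopropane-1-carboxylate oxidase 1 (evm_TU_ptg000019l_1831), which makes ethylene, had 161.1, 319.9 and 520.3 FPKM in cracked hulls and 153.1, 32.6 and 61.8 FPKM in intact hulls (log2 fold change 2.13, SE 0.52, limma adjusted p = 0.0499). This call sat on the threshold and was lost in most other settings, among them without replicate 2 (1.61) or 3 (2.06) of the intact hulls and without replicate 2 (2.08) or 3 (1.73) of the cracked hulls. Without replicate 3 of the cracked hulls 1 of the 84 genes was called, and likewise without replicate 2 of the intact hulls. Of 21 gibberellin genes 2 rose (9.52%; 1 without either of these libraries), with Gibberellin-regulated protein 11 (evm_TU_ptg000010l_613) at 10.7, 16.2 and 8.95 FPKM in cracked hulls and 3.62, 2.32 and 3.18 FPKM in intact hulls (log2 fold change 1.66, SE 0.25, limma adjusted p = 0.000894).

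No gene was called on the jasmonate or abscisic acid lists by limma, though without replicate 2 of the cracked hulls 2 and 1 were. On the jasmonate list (44 genes, median -0.12) 4 genes were higher and 4 lower at an unadjusted p under 0.05, and Jasmonate-induced oxygenase 2 (evm_TU_ptg000020l_2307) had 2.72, 4.10 and 3.20 FPKM in cracked hulls and 0.548, 0.0529 and 0.357 FPKM in intact hulls (limma adjusted p = 0.0563). This gene passed with a pseudocount of 0.1 (log2 fold change 3.25, limma adjusted p = 0.0101) and with array weights (limma adjusted p = 0.0236). On the abscisic acid list (42 genes, median -0.10) 0 were higher and 5 lower at that level, and the receptor PYL4 (evm_TU_ptg000009l_128) had 13.4, 14.5 and 13.5 FPKM in cracked hulls and 23.3, 25.3 and 19.5 FPKM in intact hulls (limma adjusted p = 0.0826; 0.0416 by voom). On the auxin list most members were lower in cracked hulls. Of its 66 genes 22.7% had a positive log2 fold change (48.2% of all genes tested), the median was -0.16, and 2 fell (3.03%). None of the list was called by limma without replicate 3 of the cracked hulls or without any of the 3 intact libraries (11 were lower at an unadjusted p under 0.05 with all libraries), and 6 were called without replicate 2 of the cracked hulls. Auxin-responsive protein IAA27 (evm_TU_ptg000001l_1337), a repressor of auxin responses, had 2.47, 6.88 and 2.64 FPKM in cracked hulls and 9.92, 8.19 and 9.93 FPKM in intact hulls (log2 fold change -1.15, SE 0.28, limma adjusted p = 0.0431). It lost its call without any of 5 of the 6 libraries, the exception being replicate 2 of the cracked hulls, with log2 fold changes of -1.24 to -0.95.

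The 16 falls were shallower than the leading rises. They included 2 neighbouring genes of the MADS-box factor AGL11, which in Arabidopsis and grapevine shapes ovule and seed coat, and which made up all calls on the list of 24 MADS-box factors (8.33%, median -0.17). Of these, evm_TU_ptg000001l_4021 had 1.15, 3.43 and 1.23 FPKM in cracked hulls and 12.8, 7.98 and 4.69 FPKM in intact hulls, and evm_TU_ptg000001l_4023 (contig ptg000001l, 50391690 to 50397318) had 0.462, 2.53 and 0.630 FPKM in cracked hulls and 6.003, 5.02 and 4.58 FPKM in intact hulls (log2 fold change -1.602, SE 0.26, limma adjusted p = 0.00179). In both, replicate 2 was the highest cracked library, as in 11 of the 16 falls. With a pseudocount of 0.1 neither was called (-2.36, limma adjusted p = 0.0848 for evm_TU_ptg000001l_4023). The gene evm_TU_ptg000001l_4023 kept its call without any of the 6 libraries, whereas evm_TU_ptg000001l_4021 lost it without replicate 1 or 3 of the cracked hulls (log2 fold changes -1.50 and -1.53) or replicate 1 or 2 of the intact hulls (-1.37 and -1.68).

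WAT1-related protein At5g07050 (evm_TU_ptg000022l_2213), of a family of vacuolar and plasma membrane transporters, had 29.0, 69.4 and 34.9 FPKM in cracked hulls and 69.6, 108.1 and 122.6 FPKM in intact hulls (log2 fold change -1.22, SE 0.25, limma adjusted p = 0.0134). Its highest cracked and lowest intact libraries nearly met, and it was not called without replicate 1 (-0.97) or 3 (-1.10) of the cracked hulls or replicate 2 (-1.14) or 3 (-1.05) of the intact hulls. Of the genes without a protein name, evm_TU_ptg000012l_458 had 45.02, 69.98 and 38.5 FPKM in cracked hulls and 116.2, 106.7 and 127.7 FPKM in intact hulls. It lost its call without the same 4 libraries (log2 fold changes -1.28 to -1.04). The shorter evm_TU_ptg000001l_2688 had 12.3, 6.39 and 3.65 FPKM in cracked hulls and 23.0, 34.1 and 27.9 FPKM in intact hulls, and lost its call without replicate 3 of the cracked hulls (-1.55) or replicate 2 (-1.78) or 3 (-1.92) of the intact hulls.

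Regulators of the MYB family gave 7 rises of 79 tested (8.86%) and 0 falls, beside a list median of -0.01. Transcription factor MYB15 (evm_TU_ptg000022l_1778), an activator of lignin genes in Arabidopsis, had 2.12, 3.56 and 15.9 FPKM in cracked hulls and 1.47, 0.223 and 0.503 FPKM in intact hulls (log2 fold change 1.91, SE 0.46, limma adjusted p = 0.0423). Transcription factor MYB36 (evm_TU_ptg000027l_842), which drives the Casparian strip in Arabidopsis roots, had 5.53, 3.20 and 7.60 FPKM in cracked hulls and 1.47, 2.69 and 1.25 FPKM in intact hulls (log2 fold change 1.17, SE 0.26, limma adjusted p = 0.0207). Both calls were fragile: MYB15 lost its call without replicate 3 of the cracked hulls (1.19) or replicates 2 (1.69) or 3 (1.84) of the intact hulls, and MYB36 without replicates 1 (1.13) or 3 (0.94) of the cracked hulls or replicates 1 (1.10) or 3 (1.03) of the intact hulls. Transcription factor MYB63 (evm_TU_ptg000003l_1315), another lignin activator in Arabidopsis, had 3.09, 2.54 and 5.99 FPKM in cracked hulls and 0.236, 0.0999 and 0.386 FPKM in intact hulls. Transcription factor MYB102 (evm_TU_ptg000019l_2016) had 1.63, 1.38 and 1.65 FPKM in cracked hulls and 0, 0 and 0.258 FPKM in intact hulls. Without replicate 3 of the cracked hulls 2 of the list were called, and 3 without replicate 1 or 2 of the intact hulls. Of 48 NAC factors 1 was called, CUP-SHAPED COTYLEDON 2 (evm_TU_ptg000002l_599), at 1.92, 0.997 and 1.72 FPKM in cracked hulls and 0.273, 0.173 and 0.391 FPKM in intact hulls. Of the 6 fits without a library it was called in that without replicate 2 of the cracked hulls, and its log2 fold change was 0.87 to 1.04 in the others.

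Growth and housekeeping lists held few calls. Of 119 histone and cell division genes 4 rose (3.36%), with a median of 0.04, and 1 was called without replicate 3 of the cracked hulls or without replicate 2 of the intact hulls. Histone H2A (evm_TU_ptg000016l_592), a core chromatin protein, had 5.91, 6.51 and 12.2 FPKM in cracked hulls and 1.93, 1.87 and 2.83 FPKM in intact hulls (log2 fold change 1.47, SE 0.35, limma adjusted p = 0.0419). That call did not survive TPM, quantile or library total scaling or the loss of replicate 3 of the cracked hulls (1.18) or any intact library (1.39 to 1.601). Of 51 photosystem and chlorophyll genes 1 rose. It was Chlorophyll a-b binding protein 21 (evm_TU_ptg000017l_2157), a light-harvesting protein, with 16.0, 15.8 and 16.7 FPKM in cracked hulls and 7.37, 6.24 and 6.32 FPKM in intact hulls (log2 fold change 1.17, SE 0.17, limma adjusted p = 0.000654), while the list median was -0.09.

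On 3 further lists limma called 0 genes, although without replicate 2 of the cracked hulls 1 heat shock gene and 1 aquaporin passed. Of 170 cytosolic ribosomal proteins 80.6% had a positive log2 fold change (48.2% of all genes tested), with a median of 0.08 that was 0.05 with TPM scaling and 0.04 with quantile normalization, and 8 were higher and 2 lower at an unadjusted p under 0.05. 60S ribosomal protein L23A (evm_TU_ptg000016l_571) had 31.4, 31.7 and 36.9 FPKM in cracked hulls and 25.7, 23.4 and 27.3 FPKM in intact hulls (limma adjusted p = 0.279). Of 81 heat shock proteins and factors, with a median of -0.01, 4 were higher and 3 lower at that level. Of 23 aquaporins, which pass water through membranes, 1 was higher and 1 lower, and the median was -0.20. Aquaporin SIP1-1 (evm_TU_ptg000007l_651) had 69.3, 57.4 and 71.3 FPKM in cracked hulls and 41.6, 49.7 and 58.7 FPKM in intact hulls (limma adjusted p = 0.207).

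Of the 307 genes 76 have no protein name, and they include the largest log2 fold changes on the log2(FPKM + 1) scale. The 3 largest lie on contig ptg000013l. The gene evm_TU_ptg000013l_1162 (17143709 to 17144131) had 63.6, 49.1 and 89.0 FPKM in cracked hulls and 0.128, 0 and 13.1 FPKM in intact hulls (log2 fold change 4.72, SE 0.69, limma adjusted p = 0.000653). Likewise evm_TU_ptg000013l_1159 had 44.0, 43.5 and 64.6 FPKM in cracked hulls and 0, 0.126 and 8.29 FPKM in intact hulls, and evm_TU_ptg000013l_1165 had 29.8, 32.2 and 52.0 FPKM in cracked hulls and 0.139, 0.148 and 6.98 FPKM in intact hulls. In each of the 3, replicate 3 of the intact hulls was well above the other intact libraries and still below every cracked library. They belong to a run of 5 called genes of 390 to 456 bases among 7 annotated genes, from 17120950 to 17154632. All 5 had log2 fold changes of 3.73 to 4.72. Reads may be shared between copies this short and close, so single values are uncertain. Counting runs of at least 3 rising genes with gaps of at most 50000 bases, a rule chosen after the values were seen, gave 14 runs with 46 genes, among them glucanases, thaumatin-like proteins, chalcone synthases, phenylalanine ammonia-lyases and GPI-anchored lipid transfer proteins.

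Most genes called in cracked Lost Hills hulls were also called in tattered Golden Hills hulls. In Golden Hills 3281 genes (16.6%) were called. Of the 307 Lost Hills genes 203 were among them, which is 66.1% of the Lost Hills calls and 6.19% of the Golden Hills calls, and 202 of the 203 moved the same way. The exception was Purple acid phosphatase 23 (evm_TU_ptg000022l_1516), a phosphate-releasing enzyme, with a log2 fold change of 0.90 in Lost Hills and -0.58 in Golden Hills. Both comparisons took their spread from the same fit. The difference between them was tested for each gene as the Lost Hills change minus the Golden Hills change. It was called for 196 genes (0.994%), 44 positive and 152 negative. The positive share, 22.4%, was 46.5% with TPM scaling, which moved the median difference of all genes to 0.09, so the balance of signs depends on the scaling.

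**Figure D5:**
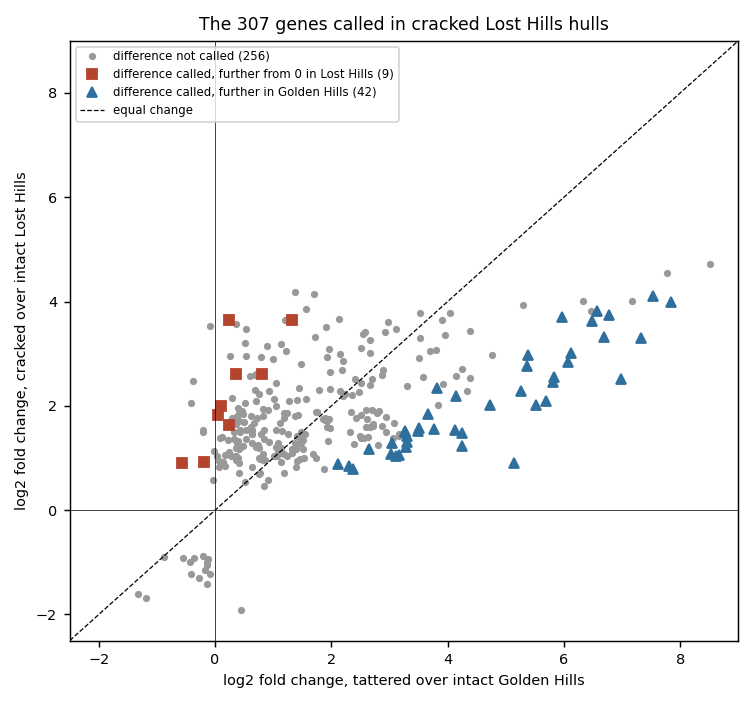
Each point is a gene called in Lost Hills, with its log2 fold change in Golden Hills (tattered over intact) across and in Lost Hills (cracked over intact) upward; the dashed line marks equal change. The 42 blue triangles, genes with a called difference and the larger change in Golden Hills, all lie right of the line, the 9 red squares have a called difference and the larger change in Lost Hills, and for the 256 grey points the difference was not called.

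Of the 307 genes 51 had a called difference, and in 42 the change was smaller in cracked Lost Hills than in tattered Golden Hills hulls. Several suberin and lignin genes were among these. The feruloyl transferase evm_TU_ptg000019l_2938 averaged 14.1 ± 5.74 FPKM in cracked and 1.31 ± 1.47 FPKM in intact Lost Hills hulls, and 68.7 ± 2.33 FPKM in tattered and 0.0421 ± 0.0729 FPKM in intact Golden Hills hulls (SD, n = 3 each). The difference in log2 fold change was -3.23 (limma adjusted p = 0.00102). Cytochrome P450 86A1, by contrast, averaged 11.6 ± 6.12 FPKM in cracked hulls and 8.06 ± 6.34 FPKM in tattered hulls, and its difference was 0.50 (limma adjusted p = 0.733). Of the 5 suberin genes that rose 4 had a called difference, of the 8 lipid transfer proteins 4, of the 6 laccases and dirigent proteins 4, and of the 8 class III peroxidases 4, against 0 of the 11 phenylpropanoid enzymes and 0 of the 7 flavonoid enzymes. These counts take differences of either sign. Among the class III peroxidases, Lignin-forming anionic peroxidase and Peroxidase 53 had the larger change in Lost Hills.

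In 9 genes the change was larger in cracked Lost Hills hulls, and 8 of them have a protein name. They are Lignin-forming anionic peroxidase, Peroxidase 53, Glucan endo-1,3-beta-glucosidase 3 (evm_TU_ptg000019l_1836), Berberine bridge enzyme-like 13 (evm_TU_ptg000003l_1411), Tubulin alpha chain (evm_TU_ptg000003l_250), 4-hydroxy-tetrahydrodipicolinate synthase (evm_TU_ptg000007l_12), Probable flavin-containing monooxygenase 1 (evm_TU_ptg000001l_1006) and Purple acid phosphatase 23. Tubulin alpha chain, a subunit of microtubules, had 11.97, 12.2 and 27.7 FPKM in cracked hulls and 1.45, 2.39 and 1.63 FPKM in intact Lost Hills hulls (log2 fold change 2.60). In Golden Hills its means were 5.99 FPKM in tattered and 4.62 FPKM in intact hulls, and the difference was 2.25 (limma adjusted p = 0.0143). The PR-1 type protein averaged 2052 ± 2613 FPKM in cracked and 105.1 ± 131.7 FPKM in intact Lost Hills hulls, and 48.4 ± 2.45 FPKM in tattered and 18.2 ± 2.76 FPKM in intact Golden Hills hulls (SD, n = 3 each), but its difference of 2.81 was not called (limma adjusted p = 0.317). Of the 15 defence genes that rose in cracked hulls 7 were also called in tattered hulls, against 203 of all 307 Lost Hills calls (66.1%). Of the 81 heat shock genes 32 were called in Golden Hills, where 16.6% of all genes tested were called and the list median was 0.52. Among them 23.6 kDa heat shock protein (evm_TU_ptg000010l_1076), a mitochondrial chaperone, had 3.18, 4.54 and 3.77 FPKM in cracked and 7.16, 6.13 and 6.60 FPKM in intact Lost Hills hulls, and its difference from Golden Hills was -1.996 (limma adjusted p = 0.000587).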

How the data were processed

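RNA was extracted from hulls with an RNeasy kit, and poly-T selected, strand-marked (dUTP) libraries were made, per the labels' protocols. The submitters' processing notes name HISAT2 2.0.5, StringTie 1.3.3b and featureCounts 1.5.0-p3. The deposited values are FPKM for 39783 predicted genes on 427 contigs, 24977 of them with a protein name, and the genome build is not given in the sources used here. None of the gene IDs occurs in the RefSeq table supplied, so no sequence is printed. Multiplying FPKM by gene length gave whole reads for 100% of values (tolerance 0.01), with 16116971 to 18609861 reads per library over the 20 libraries.

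A gene was tested, 19716 in all, where 3 or more libraries held at least 1 FPKM. Values were log2(FPKM + 1), which understates the change of low genes. limma 3.58.1 (R 4.3.3) fitted 6 groups over 20 libraries with a trended prior, two-sided, with Benjamini-Hochberg adjustment over all genes tested and a threshold of 0.05. On simulated counts for the Lost Hills comparison (19716 genes), this fit called 46 of 100 genes changed 2-fold and 82 of 100 changed 4-fold, and 4.48% of its calls were false. With only the 6 libraries it called 13 and 60. The simulated counts were independent, with a spread per gene shared by all groups. They held no library that stood apart, so these rates may not hold for the calls in the data. Where a gene had no read, the floor was 3 reads per library, which covers counting error only.

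Genes were eligible for naming where the group with the higher level averaged 5 FPKM or more and cracked and intact libraries did not overlap. They were the 10 largest rises and up to 6 largest falls with a protein name, the 3 largest rises and 2 largest falls without one, 2 per list, and the 2 most positive and 2 most negative differences between cultivars; lists with none give their best member as values. Other genes named were chosen after their values were seen. All lists and members were chosen with earlier results of these data known. Lists were matched by protein name, and neighbouring copies may share reads. Replicate numbers did not pair the samples: deviations of same-numbered cracked and intact libraries correlated at -0.17, -0.11 and 0.04. Alternatives were other pseudocounts, filters, scalings, weights, blocks and thresholds, voom on the recovered reads, and each library left out.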

Additional observations from a re-analysis of the deposited data

Results flagged for a closer look

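Among the 63 genes named by rule, 12 had a change in cracked Lost Hills hulls that differed from that in tattered Golden Hills hulls. This was judged by limma's test of the difference itself, which called 196 of all genes tested (0.994%). The difference is given here as the Lost Hills minus the Golden Hills log2 fold change. The 2 most positive and 2 most negative genes were named for the size of this difference and drawn from genes where it was called. Their place among the 12, and at the ends, thus follows from the rule. The 12 of 63 can therefore not be set against the share of all genes tested. The difference was positive for 2 of the 12. For Lignin-forming anionic peroxidase it was 3.40 (limma adjusted p = 0.00575), with 0.455 ± 0.0358 FPKM in tattered and 0.249 ± 0.201 FPKM in intact Golden Hills hulls (SD, n = 3 each). That call was lost with a pseudocount of 0.1 (4.83), with only the groups compared and by voom. For Pectinesterase inhibitor 10 it was 2.40 (limma adjusted p = 0.0443), where the gene averaged 2.31 FPKM in tattered and 38.05 FPKM in intact Golden Hills hulls, and most other settings lost the call.

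The other 10 differences were negative. Among wall and surface genes they were -2.75 for Peroxidase 4, -3.38 for Laccase-7, -3.23 for Omega-hydroxypalmitate O-feruloyl transferase and -3.11 for GDSL esterase/lipase At1g74460. Laccase-7 averaged 17.01 ± 6.41 FPKM in cracked and 1.16 ± 1.82 FPKM in intact Lost Hills hulls, and 138.7 ± 19.8 FPKM in tattered and 0.415 FPKM in intact Golden Hills hulls (SD, n = 3). They were -1.81 for Ethylene-responsive transcription factor ERF114, -1.996 for 23.6 kDa heat shock protein and -2.98 for Glutathione S-transferase parA. For the undescribed gene evm_TU_ptg000013l_1165 the difference was -3.41.

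The most negative were Aquaporin TIP1-3 (evm_TU_ptg000016l_574), a tonoplast channel, at -5.25 (limma adjusted p = 0.00102), and the undescribed gene evm_TU_ptg000013l_1173 at -4.60 (limma adjusted p = 3.9e-06). Neither was called in Lost Hills. Aquaporin TIP1-3 had 2.89, 2.47 and 1.55 FPKM in cracked and 6.34, 0.526 and 0.395 FPKM in intact Lost Hills hulls, and 55.2 ± 25.3 FPKM in tattered hulls (SD, n = 3); its difference was not called by voom.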

How the results depend on the processing

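The Lost Hills count of 307 was 101 with a mean of at least 5 FPKM, 4 with only the groups compared, 666 with array weights and 173 to 552 with 1 library left out. The replicate block gave 356, and 0 together with only the groups compared; same-numbered libraries did not deviate together and no library correlated best with its own number. Voom gave 228 and lost 16 of the 52 named calls, among them Pectinesterase 2, Non-specific lipid-transfer protein and arabinogalactan protein 31. No named call changed sign, and 26 held in every setting but those with only the groups compared. The difference between cultivars (196) was called for 75 genes with a pseudocount of 0.1, 91 with a mean of at least 5 FPKM, 83 with only the groups compared, 981 with array weights, 323 with the block, 95 with the block and only the groups compared, 49 by voom, and 132 to 362 with 1 library left out. Golden Hills (3281) gave 1790 with only the groups compared, 5788 with array weights, 1537 with the block added to that, 945 at a log2 fold change of at least 1, and 1689 to 2777 with 1 library left out. Its share of higher calls, 55.8%, was 26.6% with TPM, 38.2% with quantile normalization and 44.1% with library totals. With components recomputed without 1 library, the groups differed by -4.16 to 62.8 on the first and 4.33 to 46.7 on the next. The cause of these changes was not tested. The edgeR alternative was not run.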

Other observations

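Among genes called higher in cracked hulls at low levels were 3 known from mitosis, chosen after their values were seen; of the 119 histone and cell division genes followed as a list 4 were called (3.36%), and 1 without replicate 3 of the cracked hulls. Syntaxin-related protein KNOLLE (evm_TU_ptg000007l_652), which fuses membranes into the new cell plate, had 2.18, 2.04 and 6.55 FPKM in cracked hulls and 0.193, 0.164 and 0.237 FPKM in intact hulls. Cyclin-dependent kinase B1-2 (evm_TU_ptg000027l_263), a mitotic kinase, had 1.68, 1.61 and 3.33 FPKM in cracked hulls and 0.0481, 0.128 and 0.123 FPKM in intact hulls. Serine/threonine-protein kinase Aurora-1 (evm_TU_ptg000001l_1637), of the spindle and cell plate, had 2.27, 2.17 and 3.91 FPKM in cracked hulls and 1.03, 0.470 and 0.945 FPKM in intact hulls. In all 3 the groups did not overlap, as in 300 of the 307 called genes, and replicate 3 was the highest cracked library. The difference from Golden Hills was not called for KNOLLE (1.43, limma adjusted p = 0.0966), the kinase B1-2 (1.07, limma adjusted p = 0.213) or Aurora-1 (0.70, limma adjusted p = 0.236).

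Genes near the suberin pathway but on no list, likewise chosen after their values were seen, included CASP-like protein 1B1 (evm_TU_ptg000017l_795), of a family of membrane proteins related to those that place the Casparian strip. It had 6.80, 5.32 and 13.9 FPKM in cracked hulls and 0, 0 and 0.182 FPKM in intact hulls. ABC transporter G family member 20 (evm_TU_ptg000027l_639), of a clade that exports suberin in Arabidopsis, had 2.99, 3.40 and 6.31 FPKM in cracked hulls and 0.859, 1.03 and 1.85 FPKM in intact hulls. ABC transporter G family member 1 (evm_TU_ptg000009l_568) had 6.20, 4.24 and 8.72 FPKM in cracked hulls and 0.843, 1.18 and 3.77 FPKM in intact hulls. None of the 3 overlapped between groups, nor did 11.6% of all genes tested.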
